A study of Mus musculus with 3 samples.

Results

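Dbp, Tef and Hlf, the 3 PAR bZIP transcription factors, and Nfil3, their bZIP antagonist, are followed here by gene symbol through each cell class of the mouse retina. These 4 genes of 18545 in the matrix were taken by name for their place at the output of the circadian clock, with earlier results of these data known. The tissue was retina of mice at 8 weeks of age, broken into single cells by papain and sequenced by 3′ tag counting with unique molecular identifiers (UMIs). There were 3 libraries, 1 for each group. The WT library came from 2 female and 2 male C57BL/6J mice on the base chow. The rd10-vehicle library came from female rd10 mice, whose Pde6b, which encodes a subunit of the rod phosphodiesterase, has a point mutation and which lose their rods and later their cones, on the same chow. The rd10-TMB library came from female rd10 mice on chow with tamsulosin, metoprolol and bromocriptine (TMB), which act on the alpha-1 adrenergic, beta-1 adrenergic and dopamine D2-like receptors. The rd10 mice were kept in darkness throughout life. The methods of the study do not state the light in which the WT mice of this library were kept. The labels give 1 retina from each of 4 mice per pool, whereas the methods of the study give 3 mice for each rd10 group. The time of day at which the eyes were taken is not given in the sources used here. Library and collection time therefore cannot be told apart from group. Sex differed from WT only in part, since the WT library holds both sexes.

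With 1 library per group no difference between groups could be tested. Levels are counts per 1000000 UMIs of the class (CPM), ratios are on the log2 scale, and each interval is a 95% counting interval. These intervals cover counting error within the libraries and carry nothing on the spread between mice. The matrix held 15242 cells: 4478 of WT, 5952 of rd10-vehicle and 4812 of rd10-TMB, with a median of 3509.5, 4811.5 and 4772.5 UMIs per cell. Libraries shared 25 of 15217 distinct barcodes. Of 19 classes, 10 had at least 50 cells in each library and were compared between libraries. Names such as MG-like, for Müller glia, rest on marker genes, and clusters whose leading genes spoke for no one name are given by their number.

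PAR bZIP factors bind D-box sites in the promoters of clock-controlled genes. The CLOCK and BMAL1 pair drives transcription of Dbp through E-boxes, so that Dbp transcript swings strongly over the day in most tissues, while Tef and Hlf commonly follow with smaller swings. NFIL3, also called E4BP4, binds the same D-box as a repressor, and its gene is repressed by the REV-ERB receptors through ROR elements. The retina holds its own clock, and Müller glia, the radial glia of the retina, are among its rhythmic cells.

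In the RefSeq annotation of GRCm38.p6, Dbp spanned chr7:45705100-45710203, Tef chr15:81802673-81826863, Hlf chr11:90336535-90390917 and Nfil3 chr13:52967209-52982878. The last 737 bases of Dbp, chr7:45709467-45710203 in GENCODE, overlap Sphk2 on the opposite strand. Sphk2 stood at 9.94, 11.8 and 7.63 CPM in MG-like cells of WT, rd10-vehicle and rd10-TMB, far below Dbp. The antisense gene Gm17597 overlaps the first exon of a longer GENCODE transcript of Tef and lies far from its 3′ end, where tags arise.

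The promoters of all 4 genes, 5 in number because the RefSeq promoter table gives Tef a pair of starts and the others 1 each, were searched on both strands for 4 motifs. Both starts of Tef held an E-box, CACGTG, which 7.15% of 32851 RefSeq promoters of the same length hold. Hlf held a cAMP response element, TGACGTCA, which 1.79% of promoters hold. Nfil3 held the core of a ROR element, TAGGTCA, on the reverse strand, which 2.61% hold. Neither these motifs nor the D-box, TTANGTAA, which 2.32% hold, were among the letters of the Dbp window. The windows ran from 250 bases before to 50 bases after the start in that table, and those starts of Dbp and Nfil3 lie inside the RefSeq spans given above. The stretches of 30 bases that contain each match are shown because they hold the matches found near these starts, with the motif in capitals. A match is a run of letters, and no data here bear on binding. The first Tef stretch and the Nfil3 stretch fall inside first exons of longer GENCODE transcripts of the same genes. The second Tef stretch lies in an intron of Tef, and the Hlf stretch ends at the base before the annotated start of Hlf.
Tef, first start, E-box from -127 to -122, chr15:81802534-81802563, plus strand: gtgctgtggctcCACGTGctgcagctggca
Tef, second start, E-box from -138 to -133, chr15:81811264-81811293, plus strand: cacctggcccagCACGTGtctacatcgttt
Hlf, cAMP response element from -9 to -2, chr11:90390918-90390947, minus strand: atcggcgcgcggtgcgggcccTGACGTCAc
Nfil3, ROR element core from -12 to -6, chr13:52981040-52981069, minus strand: tagcgcggcgctcggaacTGACCTActaac

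Dbp, the factor with the largest daily swing of the family in most tissues, gave 32652 UMIs over the matrix. In WT it was highest in OFF cone bipolar-like cells, at 732 CPM. RBC-like cells (rod bipolar cells, 608 CPM), MG-like cells (587 CPM) and cluster 6, an Igfn1 and Vsx1 cluster (570 CPM), followed, below it and within counting error of each other. ON cone bipolar-like cells and cluster 10, a Cck cluster, stood at 461 and 454 CPM and did not differ from each other. Endothelial-like cells were at 306 CPM, amacrine-like cells at 249 CPM and cone-like cells at 153 CPM. Rod-like cells were lowest, at 48.9 CPM, 14.96-fold below the top class, and each step from cluster 10 down to them was beyond counting error.

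In rd10-vehicle MG-like cells stood lower in the order of Dbp, at 297 CPM, within counting error of amacrine-like cells and below all bipolar classes. In rd10-TMB they were at 514 CPM, between cluster 10 and ON cone bipolar-like cells, and the first 6 classes were each within counting error of the next. Rod-like cells were lowest in both rd10 libraries, at 39.5 and 36.4 CPM.

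Hlf, a PAR bZIP factor abundant in neurons, gave 24992 UMIs. ON cone bipolar-like cells were highest in WT, at 644 CPM, and in rd10-TMB, at 716 CPM. In rd10-vehicle cluster 10 was highest, at 861 CPM, ahead of ON cone bipolar-like cells at 717 CPM beyond counting error. In rd10-TMB the first 5 classes were each within counting error of the next. Amacrine-like cells held 512, 448 and 503 CPM in WT, rd10-vehicle and rd10-TMB, and MG-like cells 463, 211 and 306 CPM. Both photoreceptor classes were low. Rod-like cells held 69.5, 34.9 and 42.7 CPM and cone-like cells 52.6, 39.4 and 35.9 CPM, and the order of this pair was within counting error in each library.

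Tef gave 8856 UMIs and varied least between classes in WT, with the highest class 3.34-fold above the lowest. Its first 8 classes in WT, from OFF cone bipolar-like cells at 171 CPM to cone-like cells at 109 CPM, each lay within counting error of the next. Endothelial-like cells at 73.1 CPM and rod-like cells at 51.2 CPM were below them beyond counting error. In rd10-vehicle the range widened to 8.68-fold, with cluster 10 at 262 CPM and rod-like cells at 30.2 CPM.

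Nfil3 was scarce, with 882 UMIs in all. Its levels were 23.4 CPM at most in WT, in OFF cone bipolar-like cells, and 3.01 CPM at least, in MG-like cells. Neighbours in its order were within counting error in WT with 1 exception, the step from cone-like to endothelial-like cells. RBC-like cells led in both rd10 libraries, at 27.9 and 28.2 CPM, but the lead over the next class was beyond counting error only in rd10-vehicle.

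**Figure D1:**
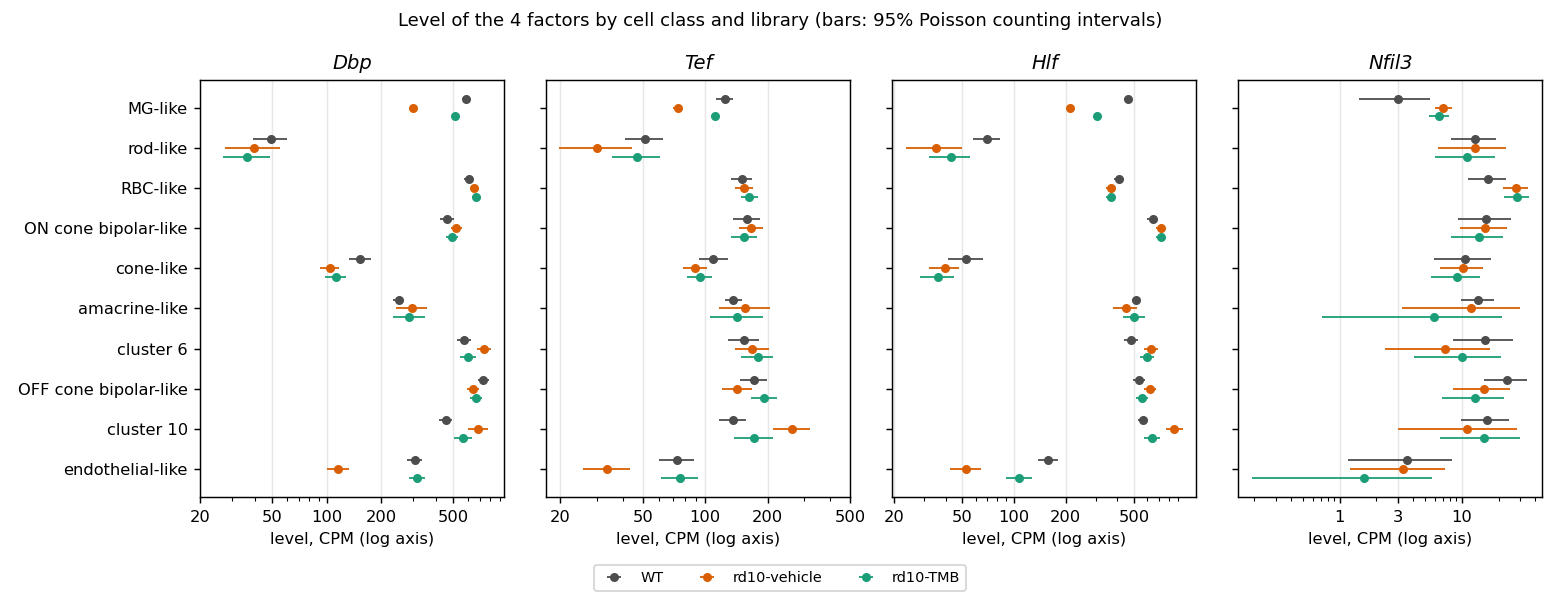
Level of Dbp, Tef, Hlf and Nfil3 in the 10 compared classes, in CPM on a log axis that differs between panels, with 1 point per library and 95% Poisson counting intervals. MG-like and endothelial-like cells show the widest gaps between rd10-vehicle and the other libraries for Dbp and Hlf, while rod-like cells are lowest for Dbp and Tef in all 3 libraries. For Tef in rd10-vehicle, rod-like and endothelial-like cells are within counting error of each other.

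Between rd10-TMB and rd10-vehicle, the comparison that bears on the treatment, the 3 PAR bZIP factors were higher in MG-like cells of rd10-TMB, and Nfil3 was not. All 11 Müller glia markers were at least 2-fold higher in this class than elsewhere, and they summed to 43758, 44667 and 45310 CPM in WT, rd10-vehicle and rd10-TMB. Dbp was at 587 CPM (561 to 614) in WT, at 297 CPM (290 to 305) in rd10-vehicle, and at 514 CPM (503 to 525) in rd10-TMB. The 3 intervals were apart, with rd10-vehicle far below the other libraries. Tef was at 124 CPM (112 to 137), 73.7 CPM (70.1 to 77.3) and 111 CPM (106 to 116). The intervals of WT and rd10-TMB overlapped, and rd10-vehicle lay below both. Hlf was at 463 CPM (440 to 487), 211 CPM (205 to 217) and 306 CPM (298 to 314), with all intervals apart.

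As ratios of rd10-TMB to rd10-vehicle in MG-like cells, Dbp was 0.79 higher on the log2 scale (0.74 to 0.83), a 1.73-fold difference. Tef was 0.60 higher (0.50 to 0.69), or 1.51-fold, and Hlf 0.53 higher (0.48 to 0.59), or 1.45-fold. Dbp and Tef thus passed the 1.5-fold limit upward and Hlf came just short of it, where 2.36% of 14464 genes tested passed it upward. Dbp and Hlf are among the genes that the study named as raised by TMB in these same libraries, so their direction is not independent evidence. The Tef call ended with each cell thinned to 1000 UMIs (0.48), with the mean over cells (0.57) and in cells without Lcn2 (0.53). Nfil3 had 157 UMIs in rd10-vehicle and 110 in rd10-TMB, and its ratio was -0.11 (-0.47 to 0.25). The interval includes both a modest decrease and a small increase, and with each cell thinned to 1000 UMIs the value was -1.07, outside it.

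Against WT, MG-like cells of rd10-vehicle had lower Dbp by a log2 ratio of -0.98 (-1.05 to -0.91), lower Tef by -0.76 (-0.91 to -0.59) and lower Hlf by -1.13 (-1.22 to -1.05). All 3 PAR bZIP factors passed the limit downward, where 12.4% of 13871 genes did. Against the 245 WT cells of this class that had Xist and lacked Y-linked UMIs, the ratios were -0.87 for Dbp, -0.81 for Tef and -1.13 for Hlf. Nfil3 went the other way, from 10 UMIs in WT to 157 in rd10-vehicle. That was 3.01 CPM (1.44 to 5.54) against 7.07 CPM (6.01 to 8.27), a log2 ratio of 1.10 (0.31 to 2.32), where 9.78% of genes were that much higher. With each cell thinned to 1000 UMIs the Nfil3 ratio was 0.16, and with 10 UMIs in WT it is held only loosely. Depth differed with the group here, since MG-like cells had medians of 6300, 8593.5 and 9454.5 UMIs, with WT the shallowest and rd10-TMB the deepest. Its part in the Nfil3 ratio was not tested.

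The rd10-TMB library was compared with WT in the same cells. This comparison shares the rd10-TMB counts with the first comparison and the WT counts with the second. Dbp was at -0.19 (-0.26 to -0.12) and Tef at -0.16 (-0.31 to 0.00), both within 1.5-fold of WT. Hlf was at -0.60 (-0.68 to -0.51) and past the limit, where 11.7% of genes were lower, but lay within it at -0.53 with median-of-ratios scaling, -0.57 with mitochondrial and ribosomal protein genes left out of the totals, -0.56 with the mean over cells and -0.52 in cells without Lcn2. Nfil3 was at 0.998 (0.19 to 2.22), with 7.88% of genes that much higher, and stood at -0.91 with cells thinned to 1000 UMIs each.

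RNA of neurons in MG-like cells bears on these values. Had all UMIs of neuron markers in MG-like cells been carried over from 6 neuron classes, those would have brought up to 157, 149 and 153 CPM of Dbp and 204, 184 and 193 CPM of Hlf, in the order of libraries used above. The limits were 57.8, 54.1 and 58.1 CPM for Tef and 6.59, 5.03 and 3.66 CPM for Nfil3. For Dbp, Tef and Hlf these upper limits varied less between libraries than the levels did. In rd10-vehicle the limit was close to the level itself for Hlf and most of the level for Tef, and for Nfil3 in WT it was above the level. Rod transcripts summed over 5 genes were at 754, 1128 and 1180 CPM in MG-like cells, alike in both rd10 libraries. Leaving out MG-like cells with 1000 CPM or more of bipolar markers, a filter chosen after seeing the data, gave 0.80 for Dbp, 0.60 for Tef and 0.54 for Hlf for rd10-TMB over rd10-vehicle.

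**Figure D2:**
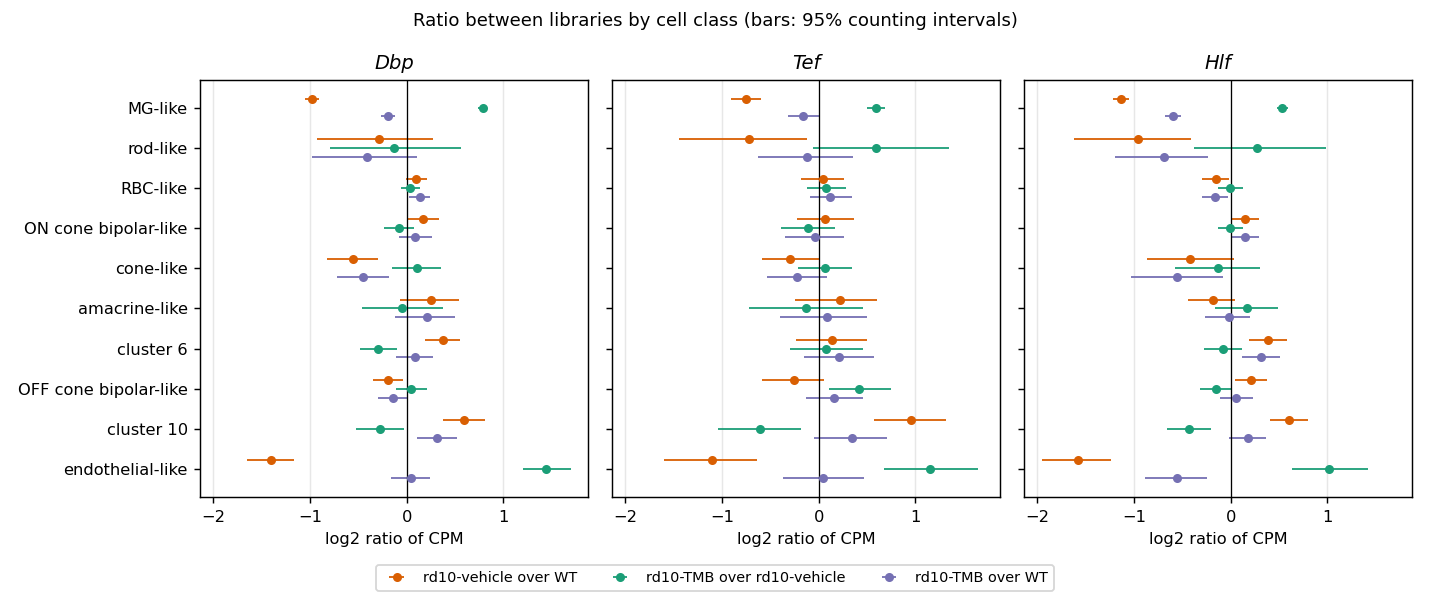
Log2 ratios between libraries for Dbp, Tef and Hlf in the 10 compared classes, with 95% counting intervals and a line at 0. In MG-like and endothelial-like cells rd10-vehicle lies left of 0 against WT and rd10-TMB lies right of 0 against rd10-vehicle, while most neuron classes sit near 0 and cluster 10 has the opposite signs.

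MG-like cells were also divided by whether they had a UMI of Lcn2, a secreted protein of reactive glia. Cells with one numbered 9, 653 and 300 in WT, rd10-vehicle and rd10-TMB, and they were the deeper cells, with a median of 10153 against 8175 UMIs in rd10-vehicle. In rd10-vehicle Dbp was at 218 CPM (208 to 229) in cells with Lcn2 and 338 CPM (328 to 347) in cells without. In rd10-TMB it was at 431 CPM (411 to 451) and 540 CPM (527 to 553). The level with Lcn2 was thus lower than the level without it in both rd10 libraries, and each rd10-TMB value was above both rd10-vehicle values. Hlf too was lower with Lcn2, at 162 against 236 CPM in rd10-vehicle and 236 against 328 CPM in rd10-TMB. Tef was at 59.4 and 80.9 CPM in rd10-vehicle and 93.3 and 117 CPM in rd10-TMB. Nfil3 was ordered in the opposite way, at 10.6 CPM (8.39 to 13.2) with Lcn2 and 5.29 CPM (4.18 to 6.60) without in rd10-vehicle, and at 11.8 CPM (8.71 to 15.7) and 4.88 CPM (3.74 to 6.25) in rd10-TMB. In cells without Lcn2 alone, rd10-TMB over rd10-vehicle was 0.68 for Dbp, 0.53 for Tef and 0.48 for Hlf.

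**Figure D3:**
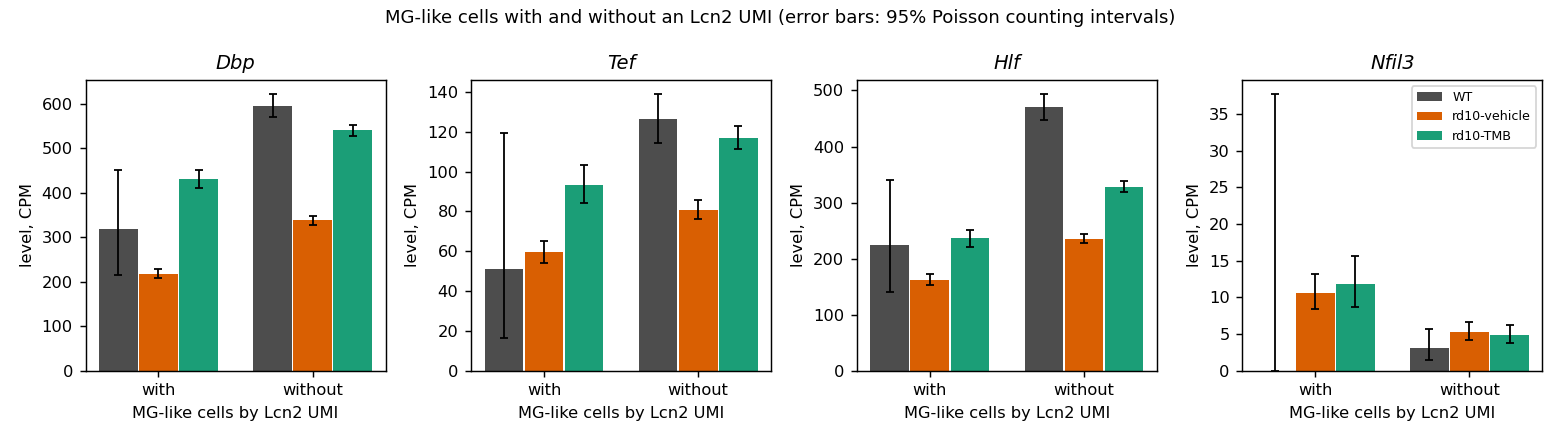
Level of the 4 factors in MG-like cells with and without an Lcn2 UMI, in CPM from 0, with 1 bar per library and 95% Poisson counting intervals. In both rd10 libraries Dbp, Tef and Hlf are lower and Nfil3 is higher in cells with Lcn2, and the 9 such cells of WT give wide intervals.

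Endothelial-like cells, with 137, 156 and 100 cells in WT, rd10-vehicle and rd10-TMB, had the widest gap between the rd10 libraries of the 10 classes for Dbp, Tef and Hlf. Of 9 endothelial markers 8 were at least 2-fold higher there, and so were all 9 pericyte markers, none of which was among its 10 leading genes. Dbp was at 306 CPM (278 to 336), 115 CPM (100 to 132) and 315 CPM (285 to 347) in that order of libraries. Tef was at 73.1, 33.8 and 75.5 CPM, and Hlf at 158, 52.7 and 107 CPM. Each factor was lowest in rd10-vehicle, with its interval below those of both other libraries. For rd10-TMB over rd10-vehicle the log2 ratios were 1.45 (1.20 to 1.70) for Dbp, 1.15 (0.68 to 1.65) for Tef and 1.02 (0.64 to 1.42) for Hlf. All 3 passed the limit upward, as 5.99% of 9715 genes did. Nfil3 had 13 UMIs over the 3 libraries, too few for a ratio.

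Beside these values stand transcripts of other cells. In WT 47 of the 137 endothelial-like cells carried 1000 CPM or more of 24 bipolar markers, with a median of 8662 CPM in those cells, against 10 cells in each rd10 library. Dbp was at 683 CPM and Hlf at 385 CPM in those 47 cells. ON cone bipolar markers reached 15.6% of their summed level in ON cone bipolar-like cells in WT, and 2.04% and 2.11% in rd10-vehicle and rd10-TMB. The 5 rod transcripts summed to 485, 183 and 340 CPM. As an upper limit, all neuron classes together could have brought 243, 29.9 and 36.5 CPM of Dbp, 66.4, 8.32 and 11.4 CPM of Tef and 228, 32.4 and 37.2 CPM of Hlf to endothelial-like cells. For Hlf in WT this limit was above the level. Without such cells 90, 146 and 90 cells were left, and Dbp was at 208 CPM (182 to 236), 107 CPM (92.2 to 124) and 311 CPM (280 to 344). Tef was at 58.7, 31.7 and 75.8 CPM and Hlf at 99.3, 39.7 and 93.9 CPM.

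In the cells that were left, rd10-TMB over rd10-vehicle was as large as before, at 1.53 (1.28 to 1.80) for Dbp, 1.25 (0.76 to 1.77) for Tef and 1.23 (0.80 to 1.69) for Hlf, with 5.89% of 9456 genes past the limit upward. Against WT, by contrast, the values depended on these cells. Over all endothelial-like cells rd10-vehicle was lower than WT by -1.40 for Dbp, -1.10 for Tef and -1.58 for Hlf, with 16.4% of genes past the limit downward. In the cells that were left the same ratios were -0.95 (-1.24 to -0.67), -0.89 (-1.44 to -0.35) and -1.31 (-1.78 to -0.87), where 8.43% of genes passed. Dbp of rd10-TMB against WT went from 0.04 over all cells to 0.58 (0.34 to 0.82), and Hlf went from -0.56 (-0.88 to -0.25) to -0.08 (-0.47 to 0.31).

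**Figure D4:**
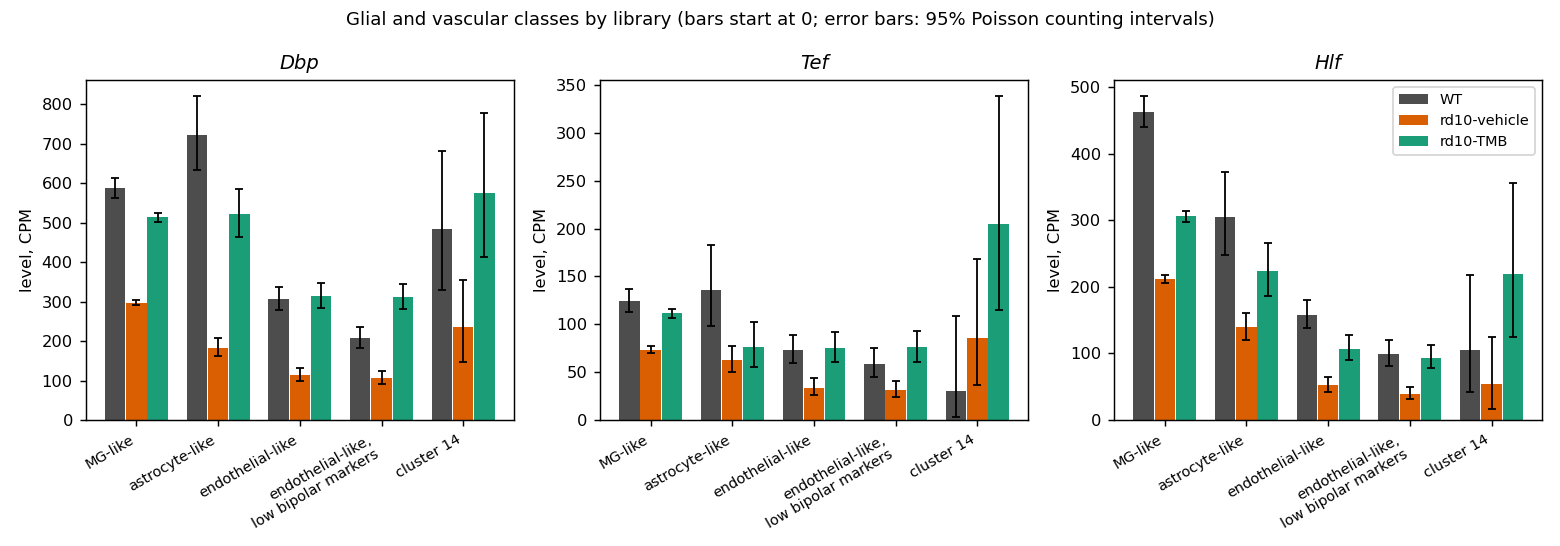
Level of Dbp, Tef and Hlf in glial and vascular classes, in CPM from 0, with 1 bar per library and 95% Poisson counting intervals. Endothelial-like cells are drawn with all cells and with those under 1000 CPM of bipolar markers, and for Dbp and Hlf rd10-vehicle is the lowest bar in every group shown.

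Astrocyte-like cells were too few for ratios, with 20, 88 and 33 cells. Dbp was at 722 CPM (633 to 821), 183 CPM (162 to 207) and 522 CPM (464 to 585) in them, with all intervals apart. Hlf was at 306 CPM (248 to 372), 139 CPM (120 to 160) and 224 CPM (186 to 266), with rd10-vehicle lowest. Tef was at 136, 62.5 and 76.3 CPM, and its intervals in the rd10 libraries overlapped. Nfil3 gave 3, 31 and 5 UMIs, which was 9.26 CPM (1.91 to 27.1), 22.0 CPM (14.97 to 31.3) and 8.88 CPM (2.88 to 20.7). Müller glia markers in astrocyte-like cells summed to 52.7%, 57.5% and 57.3% of their level in MG-like cells. Some of these markers are known in both kinds of glia, and their own expression and RNA carried over from MG-like cells cannot be told apart here. As an upper limit, RNA of MG-like cells at that share would bring up to 309, 171 and 294 CPM of Dbp, nearly all of its level in rd10-vehicle. Cluster 14, led by the smooth muscle genes Acta2 and Myh11, had 20, 25 and 22 cells and Dbp at 483 CPM (331 to 682), 235 CPM (147 to 356) and 575 CPM (414 to 777). The Dbp intervals of WT and rd10-vehicle overlapped. Tef gave 2, 8 and 15 UMIs in cluster 14 and was lowest in WT.

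In RBC-like and in ON and OFF cone bipolar-like cells, Dbp, Tef and Hlf stayed within 1.5-fold between libraries. In RBC-like cells Dbp was at 608, 651 and 668 CPM in WT, rd10-vehicle and rd10-TMB, Tef at 150, 154 and 163 CPM and Hlf at 410, 369 and 367 CPM. For rd10-TMB over rd10-vehicle the ratios were 0.04 (-0.06 to 0.13), 0.08 (-0.12 to 0.28) and 0.00 (-0.13 to 0.13), so that a difference as large as in MG-like cells was outside these intervals. Nfil3 gave 32, 73 and 76 UMIs in RBC-like cells of the libraries in that order. It was higher than WT by 0.75 (0.16 to 1.42) in rd10-vehicle, where 7.09% of genes passed the limit upward, and by 0.76 (0.18 to 1.43) in rd10-TMB, where 5.82% did. With thinned cells the rd10-TMB value was 0.41, within the limit. In ON cone bipolar-like cells Dbp was at 461, 519 and 490 CPM and Hlf at 644, 717 and 716 CPM. In OFF cone bipolar-like cells Dbp was at 732, 641 and 663 CPM, and Tef, at 171, 143 and 192 CPM, stood at 0.42 (0.10 to 0.75) for rd10-TMB over rd10-vehicle. Nfil3, with 26, 15 and 13 UMIs in OFF cone bipolar-like cells, was at -0.59 (-1.66 to 0.34) for rd10-vehicle over WT and at -0.81 (-1.94 to 0.15) for rd10-TMB over WT. Both values were past the limit downward, as were 6.13% and 7.29% of genes, but their intervals include 0, and the first stood at 0.25 with thinned cells. The second stood at -0.56, within the limit, against WT cells with Xist and without Y-linked UMIs.

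Amacrine-like cells had 249, 295 and 286 CPM of Dbp and 137, 156 and 143 CPM of Tef, with no ratio between libraries beyond counting error for any member. Nfil3 of rd10-TMB over WT was at -0.65 (-4.29 to 0.74), from 2 UMIs in rd10-TMB and 42 in WT, too few to place it. Cluster 5 held most of them in WT and cluster 9 most of them in both rd10 libraries. Rod-like cells had the least Dbp and Tef of the 10 classes in all 3 libraries, though for Tef in rd10-vehicle they were within counting error of endothelial-like cells. In rod-like cells, with a median of 1423, 1406 and 1536 UMIs per cell, Tef was at 51.2, 30.2 and 46.7 CPM. In rd10-vehicle Tef was lower than in WT by -0.72 (-1.45 to -0.12) and Hlf by -0.96 (-1.62 to -0.41), where 12.2% of genes passed the limit downward. Tef stood at -0.41 in cells with at least 1000 genes and at -0.47 with thinned cells, and Hlf at -0.57 with thinned cells, each within the limit. Tef was at 0.60 (-0.06 to 1.35) for rd10-TMB over rd10-vehicle, which counting error does not separate from 0, and 6.08% of genes were that much higher. Hlf of rd10-TMB was below WT by -0.69 (-1.19 to -0.23), beside 11.5% of genes, and stood at -0.49 in cells with at least 1000 genes. In cone-like cells Dbp was at 153, 104 and 112 CPM and lower than WT by -0.56 (-0.82 to -0.29) in rd10-vehicle.

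Cluster 10 went against the glial and vascular classes. Dbp was at 454, 685 and 565 CPM, Tef at 136, 262 and 172 CPM and Hlf at 567, 861 and 639 CPM in WT, rd10-vehicle and rd10-TMB, and each was highest in rd10-vehicle. For rd10-vehicle over WT the ratios were 0.60 (0.37 to 0.81), 0.95 (0.57 to 1.31) and 0.61 (0.41 to 0.80), all past the limit upward, where 17.6% of genes were. With thinned cells they were 0.19, 0.50 and 0.39, none past it. Dbp and Hlf also came within it with median-of-ratios scaling (0.52 and 0.53), with the mean over cells (0.47 and 0.44) and against WT cells with Xist and without Y-linked UMIs (0.51 and 0.39). For rd10-TMB over rd10-vehicle they were -0.28 (-0.53 to -0.03), -0.61 (-1.04 to -0.18) and -0.43 (-0.66 to -0.20), of which Tef passed the limit downward, where 12.1% of genes did. With thinned cells Dbp stood at 0.047 and Tef at -0.13, and the Tef call ended, as it did with the mean over cells (-0.51) and with a stricter limit on the mitochondrial share (-0.55). Amacrine markers in this cluster summed to 1866, 348 and 920 CPM, so its makeup moved with the libraries, and the part of that in these ratios was not tested. In cluster 6 Dbp was at 570, 739 and 603 CPM and Hlf at 481, 630 and 598 CPM, and amacrine markers were at 2816, 224 and 186 CPM. Its Dbp stood at -0.29 (-0.48 to -0.10) for rd10-TMB over rd10-vehicle, and at 0.22 with thinned cells.

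The log2 ratio for rd10-TMB over rd10-vehicle was set side by side between classes. For Dbp the ratio of MG-like cells exceeded that of 8 of 9 other classes beyond counting error, by 0.68 (0.43 to 0.94) for cone-like cells up to 1.08 (0.89 to 1.27) for cluster 6. It was below that of endothelial-like cells by -0.66 (-0.90 to -0.41). For Tef it exceeded 6 of 9 and for Hlf 7 of 9 other classes. The endothelial-like ratio exceeded 9 of 9 other classes for Dbp and for Hlf and 8 of 9 for Tef. For Nfil3, 5 other classes had enough UMIs and none differed from MG-like cells.

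The share of the 4 members' UMIs that each took also moved. In MG-like cells Dbp took 49.9%, 50.5% and 54.8% in the order WT, rd10-vehicle, rd10-TMB, while Hlf took 39.3%, 35.8% and 32.6%. In astrocyte-like cells Dbp took 61.6%, 45.0% and 62.8%. Hlf took the larger share in amacrine-like cells than in MG-like cells, at 56.2%, 49.2% and 53.7%. Tef took 33.6%, 36.9% and 37.4% in cone-like cells, against 10.5%, 12.5% and 11.9% in MG-like cells. These shares count 3′ tags, and the levels of different genes are not compared on them.

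Small classes are given as levels only. The microglia-like cluster had 52 cells in rd10-vehicle and 30 in rd10-TMB, and its 6 WT cells held no UMI of any of 9 microglia markers. In its rd10-vehicle cells Nfil3 was at 31.0 CPM (14.9 to 57.0), from 10 UMIs, while Hlf gave 0 UMIs, which allows up to 9.30 CPM. In rd10-TMB Nfil3 gave 0 UMIs, which allows up to 12.9 CPM by the limit of 3 counts, and its exact interval, up to 15.9 CPM, overlapped that of rd10-vehicle. The 37 ganglion-like cells of WT had Dbp at 197 CPM and Hlf at 414 CPM, and the 18 horizontal-like cells of WT had Dbp at 308 CPM and Hlf at 66.0 CPM. Lens-like cells had Dbp at 33.2 CPM (18.95 to 53.8) in rd10-vehicle and 268 CPM (176 to 390) in rd10-TMB, but their median depth was 20634 UMIs in the first and 3556 UMIs in the second. RPE-like cells had Dbp at 373, 279 and 284 CPM with overlapping intervals.

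The core clock loop was followed beside its outputs, as 16 listed genes. Against rd10-vehicle, 3 of 16 were at least 1.5-fold higher in MG-like cells of rd10-TMB and 3 were lower, beside 2.36% and 3.75% of all genes. The median of the 16 was 0.17, against -0.02 over all genes. Those that were higher were Ciart, a repressor of the loop, at 1.73, the period gene Per2 at 1.48 and its relative Per3 at 0.60. Ciart and Per3, like Dbp and Hlf, are among the genes that the study named from these libraries. Those that were lower were Arntl, which encodes BMAL1, at -0.77, Clock, which encodes its partner, at -0.63, and Npas2, from 38 UMIs in rd10-vehicle and 12 in rd10-TMB, at -1.18. Npas2 reached the minimum of 20 UMIs only through rd10-vehicle, where it was high, so its place in this count is not read as a result. Nr1d1, which encodes REV-ERB alpha, stood at 240, 285 and 273 CPM in WT, rd10-vehicle and rd10-TMB, and its ratio was -0.06.

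For rd10-vehicle against WT in MG-like cells, 2 of the 16 were higher and 6 lower, beside 9.78% and 12.4% of all genes. Arntl was higher by 0.88. The other was Npas2, with 0 UMIs in WT and 38 in rd10-vehicle, which again entered only through rd10-vehicle. The lower ones were Ciart at -2.85, Per2 at -1.54, Per3 at -0.99, Cry1 at -0.91, Bhlhe41 at -0.84 and Nr1d2 at -0.82. Arntl was thus at 21.4, 39.7 and 23.2 CPM across WT, rd10-vehicle and rd10-TMB, and Ciart at 150, 20.8 and 69.2 CPM. In endothelial-like cells under the bipolar marker limit, 6 of 12 measured loop genes were higher in rd10-TMB and 1, Arntl at -1.72, was lower, beside 5.89% and 6.45% of genes. Their median was 0.73, against 0.00 over all genes. Against WT, rd10-vehicle had 1 of 13 higher, Arntl at 1.45, and 7 lower, beside 7.43% and 8.43% of genes. Arntl had 10, 46 and 9 UMIs in WT, rd10-vehicle and rd10-TMB here, Ciart 28, 9 and 41, Per2 17, 15 and 38 and Cry1 22, 13 and 29. Genes as scarce as these can reach the minimum through the library where they are high, so the counts in endothelial-like cells are given as a description only.

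**Figure D5:**
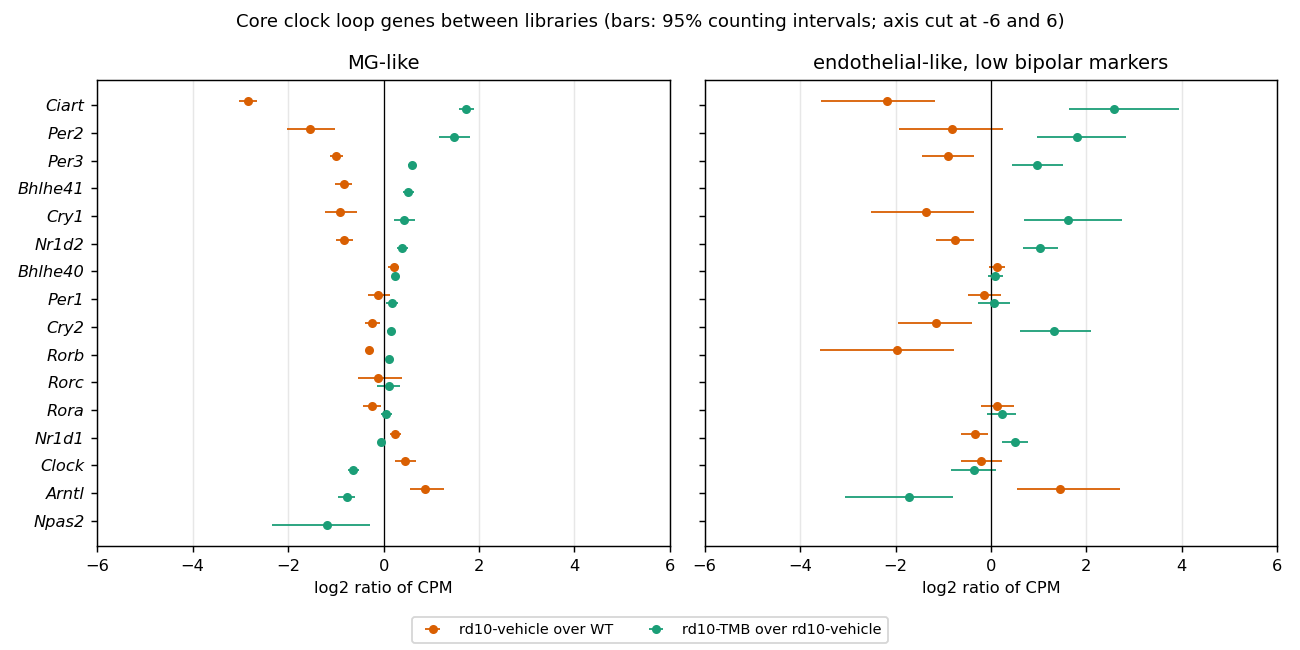
Log2 ratios of the core clock loop genes in MG-like cells and in endothelial-like cells under 1000 CPM of bipolar markers, for rd10-vehicle over WT and rd10-TMB over rd10-vehicle, with 95% counting intervals. Ciart, Per2 and Per3 lie left of 0 in the first and right of 0 in the second in both classes, and Arntl lies on the opposite sides. In endothelial-like cells the interval of Per2 for rd10-vehicle over WT, from -1.93 to 0.26, includes 0. Arntl, Ciart and Per2 are scarce in that class. Genes under 20 UMIs, or with 0 UMIs in a library, are not drawn.

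The other lists were read in MG-like cells as well. None of 5 clock kinases and ligases passed the limit between rd10-TMB and rd10-vehicle, and Fbxl21 was lowest, at -0.37. Of 5 genes rhythmic in many tissues, 1 was higher, beside 2.36% of all genes: Tsc22d3, a glucocorticoid-induced leucine zipper gene, at 0.91, and Cirbp was at the low end, at -0.14. Tsc22d3 and Usp2 had been lower than WT in rd10-vehicle, by -1.60 and -0.60. Of 4 genes known as targets of PAR bZIP factors, none was higher and 1 was lower, beside 3.75% of all genes. That gene, Nr1i3, had 16 UMIs in rd10-vehicle and 4 in rd10-TMB, and its interval, around -1.36, was from -3.64 to 0.04. Nr1i3 reached the UMI minimum only through rd10-vehicle, where it was high, so its place in this count is not read as a result. Pdxk, which encodes pyridoxal kinase, was highest at 0.13. For rd10-vehicle over WT 2 of the 4 targets were lower, beside 12.4% of all genes, and Nr1i3, with 6 UMIs in WT, was one, at -1.46 (-2.75 to 0.32). Nr1i3 again entered only through rd10-vehicle and is not read as a result. The other, Por, the cytochrome P450 reductase gene, was at 180, 99.1 and 104 CPM in WT, rd10-vehicle and rd10-TMB, lower than WT in rd10-vehicle by -0.86 and at 0.07 in rd10-TMB over rd10-vehicle. None of 4 C/EBP genes, related bZIP factors, passed the limit between the rd10 libraries, from Cebpd at -0.20 to Cebpa at 0.15. None of 4 measured glucocorticoid-responsive genes did, from Sgk1 at -0.20 to Zbtb16 at 0.42, and none of 8 immediate-early genes did, from Atf3 at -0.41 to Fosb at 0.04. None of the 5 rod transcripts did, and Gnat1 was lowest, at 0.00. Against WT, rd10-vehicle had 3 of the 4 C/EBP genes higher, Cebpb at 1.97, Cebpd at 1.26 and Cebpa at 0.93, and 5 of 8 immediate-early genes higher, up to Atf3 at 2.83, while the PAR bZIP factors were lower, beside 9.78% of all genes higher and 12.4% lower. Of the glucocorticoid-responsive genes Sgk1 was higher, at 1.68, and Fkbp5 lower, at -0.83, and 3 of 5 rod transcripts were higher, led by Sag at 1.10.

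The genes whose levels ran most like each member were ranked over 32 sums of UMIs by class and library, by Pearson correlation of log2(CPM + 10) among 11388 genes. The sums share libraries and classes, so these values are descriptions with no test. For Dbp the nearest was Nr1d1 (0.948), then Hmgn3 (0.931), Hlf (0.908), Ptprd (0.908) and Gtf2i (0.903). For Tef it was Per3 (0.934), then Phip (0.931), Bhlhb9 (0.925), Tram1l1 (0.910) and Nanp (0.908). For Hlf it was Bex3 (0.948), then Ptprd (0.944), Clip3 (0.942), Pcdhb16 (0.937) and Magi1 (0.937). Nfil3 had no gene as close, with Snhg1 (0.701), Rnf34 (0.666), Bhlhe41 (0.655), Snhg5 (0.653) and Tank (0.647).

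When each class was centred on its own mean, which leaves differences between libraries over 30 sums, Tef and Hlf came first for Dbp, and Dbp and Hlf for Tef. Tef (0.859), Hlf (0.849), Ciart (0.769), Nr1d2 (0.769) and Ppp1r9a (0.767) ran most like Dbp. Tef ran with Dbp (0.859), Hlf (0.811), Ppp1r9a (0.798), Hdgfl3 (0.779) and Per3 (0.777). Hlf ran with Dbp (0.849), Gnao1 (0.837), Vegfa (0.833), Tmem215 (0.828) and Arglu1 (0.822). Nfil3 was at -0.243 with Dbp, -0.287 with Tef and -0.345 with Hlf, and was nearest to Rgs17 (0.779), Zfp865 (0.742), Dhx57 (0.722) and Plppr3 (0.709). Arntl was at -0.566 with Dbp on this measure. With Spearman correlation, 0 of the 5 centred neighbours of Dbp, of Tef and of Hlf came back among the first 5, so these centred orders depend on the measure of likeness.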

How the data were processed

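Per the labels and the methods of the study, the authors aligned reads to mm10 with Cell Ranger 6.0.1 at default settings, removed doublets before deposit, left out cells under 500 detected genes and clustered the rest in Seurat 3.2.2. The deposited values are on a natural log scale, after each cell's UMIs were scaled to one total and 1 was added. UMI counts were recovered with the deposited total count of each cell, and 100% of 32620606 entries came out whole within 0.001 UMI. The authors' tests over cells were not used.

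For each class, UMIs of one library were added up and given as CPM. Ratios had a pseudocount of 1 UMI and needed at least 20 UMIs over both libraries. The limit of 1.5-fold was applied to all genes with as many UMIs. Intervals at 95% are exact Poisson for levels and exact conditional binomial for ratios, and that for a difference between classes comes from the variance of the 4 log counts. A count of 0 allows up to 3 counts. Clusters were named from markers at least 2-fold above all other cells and at 20 CPM or more. ON cone bipolar-like cells carry 7 of 9 markers but none among their 10 leading genes. OFF cone bipolar-like cells carry 5 of 10, and cluster 7, one of their clusters, matched the ON cone bipolar list best, with 4 of 9. Scripts were tested on simulated data and run with numpy 2.4.6, scipy 1.17.1 and pandas 2.3.3.

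The members, lists, motifs and alternatives were chosen with earlier results of these data known. The genes named are the 4 members, listed genes past 1.5-fold or at the end of a list in MG-like cells, and the 5 genes most like each member. A few genes under this rule are not reported here.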

Additional observations from a re-analysis of the deposited data

Results flagged for a closer look

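Members stood above in one class and below in another, under the same pair of libraries, in 8 cases, each beyond the counting intervals. The difference was taken between the highest and the lowest class and covers counting error only, since no test between groups was possible. For rd10-TMB over rd10-vehicle, Dbp was at 1.45 in endothelial-like cells and -0.29 in cluster 6, a difference of 1.74. Tef was at 1.15 in endothelial-like cells and -0.61 in cluster 10, a difference of 1.76. Hlf was at 1.02 and -0.43 in the same classes, a difference of 1.45.

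For rd10-vehicle over WT endothelial-like cells and cluster 10 stood at the ends for all 3 PAR bZIP factors, in the other order. Cluster 10 exceeded endothelial-like cells by 2.0004 for Dbp, by 2.06 for Tef and by 2.19 for Hlf. For rd10-TMB over WT, Dbp was at 0.32 in cluster 10 and -0.45 in cone-like cells, a difference of 0.77. Hlf was at 0.31 in cluster 6 and -0.69 in rod-like cells, a difference of 1.001. Without cells rich in bipolar markers, endothelial-like cells stood at 1.53 for Dbp, 1.25 for Tef and 1.23 for Hlf for rd10-TMB over rd10-vehicle, and at -0.95, -0.89 and -1.31 for rd10-vehicle over WT. With thinned cells, cluster 6 stood at 0.22 for Dbp and cluster 10 at -0.13 for Tef in the first of these pairs. Amacrine markers in clusters 6 and 10 differed between the libraries, and their part in these differences was not tested.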

How the results depend on the processing

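In MG-like cells the ratios of rd10-TMB to rd10-vehicle kept their sign under all 10 alternatives run for each member, between 0.65 and 0.81 for Dbp, 0.48 and 0.62 for Tef, 0.45 and 0.55 for Hlf, and -1.07 and -0.07 for Nfil3. Values outside the counting interval came with each cell thinned to 1000 UMIs (Dbp 0.65, Tef 0.48, Hlf 0.45, Nfil3 -1.07), with cells without an Lcn2 UMI (Dbp 0.68, Hlf 0.48) and with the mean over cells (Dbp 0.72). Over all classes and pairs, 970 of 1037 recomputed ratios stayed within the counting interval, 59 left it, and 8 changed sign among ratios whose interval left out 0. Counting all 113 ratios, 62 kept one sign under all alternatives and 51 did not. Of the 8, thinning turned 6: Dbp of rd10-TMB over rd10-vehicle to 0.22 in cluster 6 and 0.047 in cluster 10, Dbp of rd10-vehicle over WT to -0.10 in cluster 6, Hlf over WT in RBC-like cells to 0.026 for rd10-vehicle and 0.12 for rd10-TMB, and Nfil3 of rd10-TMB over WT to -0.91 in MG-like cells. Taking from WT only the cells with an Xist UMI and none from the Y chromosome turned Hlf over WT in ON cone bipolar-like cells to -0.065 and -0.067 in the same order. The causes were not tested. In endothelial-like cells, Dbp of rd10-TMB over WT ran from -0.69 with thinning to 0.58 without cells rich in bipolar markers. At a 2-fold limit 0.512% of genes were higher and 0.961% lower in MG-like cells of rd10-TMB against rd10-vehicle, and 0.580% and 1.43% at 1.5-fold among genes with 100 UMIs. No replicate could be left out, because each group was 1 library. No paired analysis was possible because each group has 1 library. Depth limits Nfil3 most, since a level of 3.01 CPM in WT rests on 10 UMIs.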
